A study of Mus musculus with 10 samples.

Results

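Loss of Pontin was first sampled 3 days after Cre was switched on, and the mRNA library of that day (OHT 3D) is compared here with the library of the untreated cells (WT). Pontin, encoded by Ruvbl1, is an ATPase of the AAA+ family that works with its partner Reptin (Ruvbl2) in chromatin remodelling complexes (INO80, SRCAP and TIP60) and in a co-chaperone complex that assembles large kinases and small nucleolar ribonucleoproteins. Mouse embryonic stem (ES) cells, which derive from the inner cell mass of the blastocyst, run a fast cell cycle, high glycolysis and a self-sustaining network of pluripotency factors. Genes that respond early to the loss of a chromatin factor can therefore belong to growth, metabolism, pluripotency or lineage programmes.

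Both libraries came from Pontinf/f; CreER ES cells, in which both Pontin alleles carry loxP sites around exon 3 and Cre fused to a modified oestrogen receptor becomes active with 4-hydroxytamoxifen (OHT). The line came from blastocysts of matings in which both parents were Pontinf/f and 1 of them carried CreER, and was kept in serum with LIF, the cytokine that holds ES cells undifferentiated. By the study's methods, WT is the same floxed cells at the start of OHT treatment. The allele and the transgene are thus shared by both groups. OHT, Cre activity, days in culture and the loss of Pontin cannot be told apart. A library at 4 days (OHT 4D) is set beside the values. The study's methods describe ES culture with or without embryonic fibroblast feeders and do not say which was used for these libraries. Each day had 1 library, so no difference has a replicate check and no test is given. Intervals are 95% counting intervals from the recovered reads and cover counting error only.

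Of 22713 gene IDs in the table, 12693 were above 1 CPM (read counts scaled to the size of the library) in WT or at OHT 3D. Differences are on the scale of log2(CPM + 1), and a gene counted as higher or lower when the log2-fold-change passed 0.58 in size, the study's own threshold. By this rule 784 genes (6.18%) were higher at OHT 3D and 784 (6.18%) were lower. The counting interval of each called gene lay beyond 0, and it lay wholly beyond the threshold for 343 of the higher and 298 of the lower genes. The sides differed in shape. The rises reached further, with 255 genes above 1 and 47 above 2 on the log2 scale, against 125 and 5 falls. They also started lower: the median WT level was 2.86 CPM for the higher genes and 15.6 CPM for the lower ones. Of the higher genes, 233 passed the filter only through OHT 3D and so had to differ, while 58 of the lower genes passed only through WT. The genes nearest the threshold were Fmn2 at 0.58 and Dpp6 at -0.58 inside it, and Pld1 at 0.58 and Rabac1 at -0.58 outside.

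The libraries held 17869218 reads on genes in WT and 17187595 at OHT 3D. Counting error was small for abundant genes and wider at a few CPM. The interval at OHT 3D was -1.70 to -1.57 for Ldhb, at 410 CPM in WT. For A2m, at 9.7 CPM in WT, it was -2.01 to -1.34. A yardstick for the spread within 1 group is a pair of control shRNA libraries, in a table normalized on its own. They are of another ES line, ZHBTc4, in which tetracycline can deplete Oct4. Its cells were taken 4 days after infection with a lentivirus carrying an shRNA against luciferase. The study lists a different sequencer model for them than for WT and OHT 3D. Between the control shRNA libraries, 257 of 13178 genes (1.95%) were more than 0.58 higher in the second and 156 (1.18%) were as much lower. Those values show how far 2 libraries of 1 group lay apart, and are given below for described genes where they passed 0.58.

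Pontin mRNA itself stood at 198.4 CPM in WT, 33.3 CPM at OHT 3D and 50.9 CPM at OHT 4D. Ruvbl1 (ENSMUSG00000030079, NCBIM37 chromosome 6, 88415403 to 88447566) thus had a log2-fold-change of -2.54 at OHT 3D (interval -2.65 to -2.43), from 4438 reads to 736. This was the second-largest fall among genes with a mean of at least 5 CPM. Its partner Ruvbl2 went from 327 to 311 CPM, a log2-fold-change of -0.07. Of the 36 measured subunits of INO80, SRCAP and TIP60, Ruvbl1 alone was below -0.58. The enhancer of polycomb homologue Epc1, a TIP60 subunit, was above the threshold, at 23.9 CPM in WT and 39.3 CPM at OHT 3D. In the co-chaperone, kinase and snoRNP list, 30 genes passed, and besides Ruvbl1 only Pdrg1, a prefoldin-like subunit, was called, with 17.1 CPM in WT, 43.7 CPM at OHT 3D and 39.2 CPM at OHT 4D. The kinases that this co-chaperone matures, among them Atm, Atr, Mtor and Smg1, lay between -0.27 and 0.30 at OHT 3D.

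**Figure D1:**
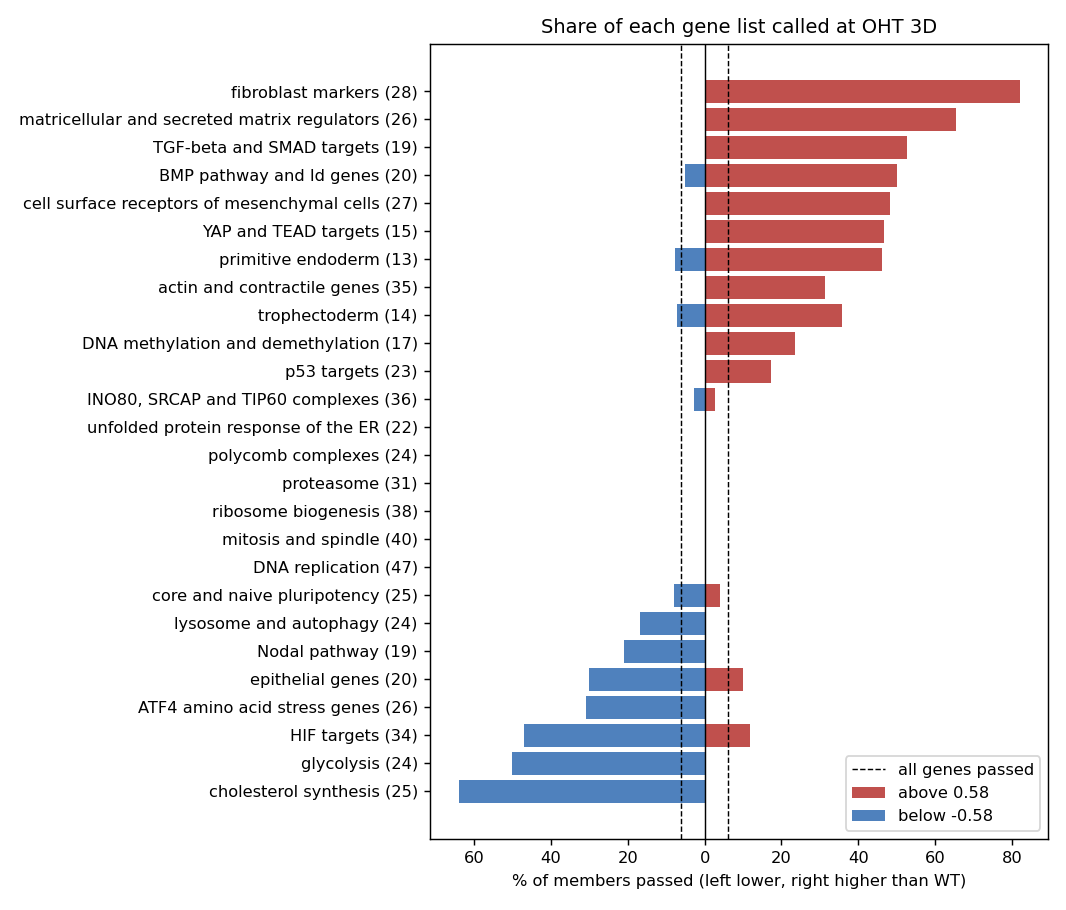
Share of the members of 26 gene lists that were above 0.58 (red, right) or below -0.58 (blue, left) in log2-fold-change at OHT 3D against WT, with the number of members passed in brackets; dashed lines mark the 6.18% of all genes passed on each side. Cholesterol synthesis (16 of 25 lower) and fibroblast markers (23 of 28 higher) stand at the ends, and 6 lists have no member called.

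Of the 784 lower genes 90 were on any of the 47 lists compiled, and of the 784 higher genes 135. Counts on lists, here and below, are to be read beside the 6.18% of all genes called on each side. Among the lists with many lower members were metabolic ones. Targets of the hypoxia-inducible factors (HIF), which switch on glycolysis and oxygen sparing when oxygen is short, had 16 of 34 passed members lower and 4 higher, with a median of -0.49 against -0.02 over all genes. Glycolysis had 12 of 24 lower and none higher, with a median of -0.60. All 24 of its members had a value below 0. The lists share 6 genes (Hk2, Ldha, Pdk1, Pfkfb3, Slc2a1 and Slc2a3), so their counts are not separate.

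Ndufa4l2, a mitochondrial protein that lowers complex I activity in hypoxia, had 17.5 CPM in WT, 1.54 CPM at OHT 3D and 2.98 CPM at OHT 4D. Bnip3, which marks mitochondria for autophagy, had 141 CPM in WT, 26.8 CPM at OHT 3D and 34.8 CPM at OHT 4D. Egln3, a prolyl hydroxylase that marks HIF for degradation and is itself a HIF target, had 56.4, 12.1 and 14.2 CPM in the same order. All 3 were lowest at OHT 3D, with log2-fold-changes there of -2.86 (interval -3.19 to -2.52), -2.35 (-2.47 to -2.22) and -2.13 (-2.32 to -1.95). Each is among the 12 largest falls of the whole comparison. Between the control shRNA libraries the same genes differed by -0.27, -0.20 and -0.05.

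The promoters of Bnip3 and Egln3 are shown because they hold the core letters of the HIF response element, ACGTG, on either strand. They are RefSeq promoters of build GRCm38.p6, from 250 bases before to 50 bases after the start site, with matches in capitals. Bnip3 lies on the minus strand at chr7:138909457-138909756 and its match is the palindrome of overlapping cores that begin 108 and 107 bases before the start. Egln3 lies on the minus strand at chr12:54203825-54204124, with a core that begins 229 bases before the start.
Bnip3: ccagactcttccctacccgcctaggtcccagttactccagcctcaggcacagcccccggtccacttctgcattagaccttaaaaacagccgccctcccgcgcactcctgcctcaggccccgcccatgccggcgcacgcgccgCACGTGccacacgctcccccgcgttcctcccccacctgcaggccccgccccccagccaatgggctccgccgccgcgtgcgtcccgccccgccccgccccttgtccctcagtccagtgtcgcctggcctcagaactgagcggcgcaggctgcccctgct
Egln3: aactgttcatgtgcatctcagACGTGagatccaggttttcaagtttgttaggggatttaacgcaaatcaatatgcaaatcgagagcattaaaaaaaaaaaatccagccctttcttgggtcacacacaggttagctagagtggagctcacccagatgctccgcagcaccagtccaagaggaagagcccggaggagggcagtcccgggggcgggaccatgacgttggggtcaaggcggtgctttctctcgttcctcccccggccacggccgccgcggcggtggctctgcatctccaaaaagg
Of the HIF targets passed, 27 had a promoter in the RefSeq table and 19 of these (70.4%) held ACGTG, against 29.6% of 10015 passed genes and 19.6% of all promoters. Within the list, 10 of 13 lower genes, 9 of 11 genes under the threshold and 0 of 3 higher genes held the letters. In glycolysis 5 of 12 lower genes (41.7%) and 9 of 11 under the threshold (81.8%) held them. Among all lower genes the share was 27.8%. The list holds known targets, some of them known through such sites, so a raised share in the list is not a finding about OHT 3D.

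The other falling HIF targets spanned several functions. Stc2, a secreted glycoprotein induced by stress, went from 38.4 to 16.6 CPM. Ddit4, an inhibitor of the growth kinase mTORC1, went from 195 to 102 CPM, and Pdk1, which holds pyruvate out of the mitochondrion, from 280.2 to 159.7 CPM. Vegfa, the angiogenic growth factor, went from 55.2 to 34.5 CPM. The 4 members above the threshold included Pfkfb4, an enzyme that controls a regulator of phosphofructokinase, from 4.07 to 7.65 CPM, and Tet1, described below.

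Of the 10 HIF subunits and oxygen sensors, 4 were lower and 1 was higher, with a median of -0.20. Hif3a and Arnt2, subunits at low level, went from 12.1 to 7.65 CPM and from 8.27 to 5.02 CPM, and the sensors Egln1 and Egln3 were the other lower members. Hif1a had 138 CPM in WT and 140 CPM at OHT 3D, a log2-fold-change of 0.02 (interval -0.05 to 0.09), and its partner Arnt went from 122 to 103 CPM, at -0.25. Epas1, which encodes HIF-2alpha, had 70.1 CPM in WT, 141 CPM at OHT 3D and 97.1 CPM at OHT 4D. Its log2-fold-change of 0.99 is to be read beside a difference of 1.08 between the control shRNA libraries. Egln1 went from 33.6 to 19.2 CPM, while the counting interval of Vhl, which directs HIF to degradation, held 0.

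The 12 lower glycolysis genes included enzymes of several steps. Pfkp, an isoform of phosphofructokinase, the main control point of the pathway, had 284 CPM in WT, 97.7 CPM at OHT 3D and 127 CPM at OHT 4D. Ldhb, a lactate dehydrogenase subunit, had 410 CPM in WT, 131 CPM at OHT 3D and 233 CPM at OHT 4D. Aldoc, an aldolase, had 24.8, 8.64 and 9.29 CPM, and Slc16a3, a lactate exporter, had 86.5, 34.2 and 55.9 CPM. The log2-fold-changes at OHT 3D were -1.53, -1.63, -1.42 and -1.31. Pgk1, Tpi1, Gpi1, Aldoa, Ldha, Pfkl and Eno2 were lower too, by -0.64 to -1.01. No gene of the hexokinase, Gapdh, Pgam1 or pyruvate kinase step was called: Hk1 lay at -0.56, and Hk2, Pkm2, Gapdh, Pgam1 and the glucose transporters Slc2a1 and Slc2a3 at -0.20 to -0.46. Summed over the list, glycolysis transcripts took 13520 CPM in WT, 9476 CPM at OHT 3D and 11660 CPM at OHT 4D.

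**Figure D2:**
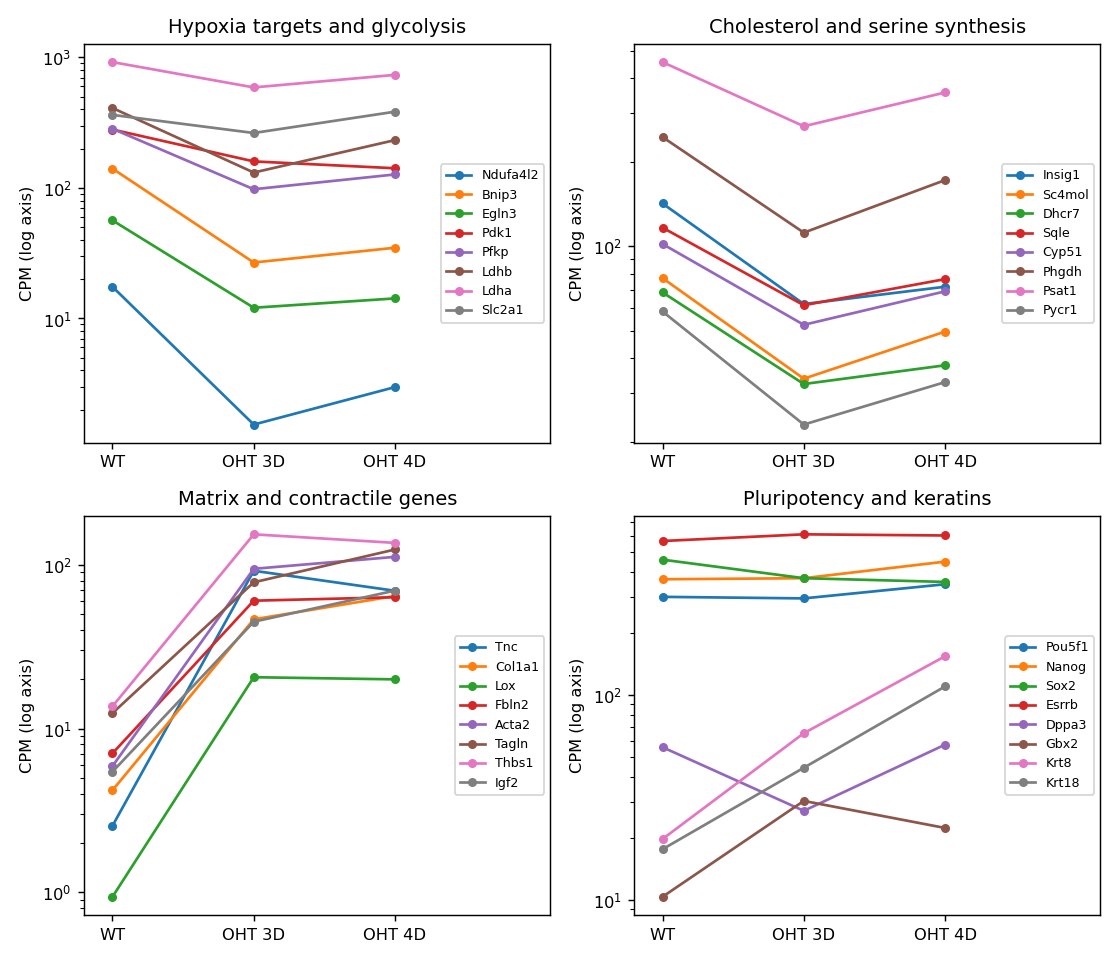
Level in CPM (log axis) of 32 named genes in the WT, OHT 3D and OHT 4D libraries, 1 library each; lines join the values of a gene, and levels of different genes are not scaled for length. Bnip3 stands at 141, 26.8 and 34.8 CPM and Acta2 at 5.90, 94.6 and 112 CPM, while Pou5f1 stays between 296 and 347 CPM.

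Cholesterol synthesis was the list with the largest share lower. Its enzymes turn acetyl units into sterols and isoprenoids, and the sterol-regulated factor SREBP-2 drives most of them. Of 25 measured members, 16 were lower and none was higher, with a median of -0.66, and 24 of 25 had a value below 0. Insig1, the sterol sensor that retains SREBP in the endoplasmic reticulum and is itself an SREBP target, had 142 CPM in WT, 62.2 CPM at OHT 3D and 71.8 CPM at OHT 4D. Sc4mol, a sterol C4-methyl oxidase, had 77.0, 33.7 and 49.6 CPM, and Dhcr7, which makes the last step to cholesterol, had 68.5, 32.2 and 37.6 CPM. The log2-fold-changes of the 3 at OHT 3D were -1.18, -1.17 and -1.07, all lower in OHT 3D than in either other library. Sqle, the squalene epoxidase, went from 117 to 61.6 CPM, and Cyp51, a sterol demethylase, from 102.0 to 52.4 CPM. Srebf2, which encodes SREBP-2, went from 274 to 178 CPM, a log2-fold-change of -0.62. Srebf1, which favours fatty acid synthesis, lay at -0.25. Between the control shRNA libraries none of the 25 fell by 0.58 and 1 rose by as much.

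The promoters of Insig1 and Sc4mol are shown for the CCAAT box, the site of the factor NF-Y, which works beside SREBP at many sterol genes. Capitals mark CCAAT on either strand. Insig1 lies on the plus strand at chr5:28071162-28071461 with 1 match, which begins 216 bases before the start site and reads ATTGG on the strand shown. Sc4mol, listed in RefSeq as Msmo1, lies on the minus strand at chr8:64733529-64733828 with 3 matches, at 160, 96 and 55 bases before the start.
Insig1: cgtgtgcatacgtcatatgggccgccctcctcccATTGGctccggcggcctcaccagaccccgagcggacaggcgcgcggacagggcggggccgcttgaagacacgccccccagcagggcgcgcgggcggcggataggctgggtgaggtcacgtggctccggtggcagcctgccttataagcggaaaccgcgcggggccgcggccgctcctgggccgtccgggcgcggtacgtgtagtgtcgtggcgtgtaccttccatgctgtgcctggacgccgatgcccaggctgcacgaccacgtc
Sc4mol: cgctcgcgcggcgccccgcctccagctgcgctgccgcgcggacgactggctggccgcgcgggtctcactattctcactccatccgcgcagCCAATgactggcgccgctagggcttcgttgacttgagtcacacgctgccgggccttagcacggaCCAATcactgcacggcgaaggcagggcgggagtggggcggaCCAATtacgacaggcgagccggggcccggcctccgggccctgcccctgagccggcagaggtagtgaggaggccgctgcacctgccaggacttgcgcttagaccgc
Of 17 members with a promoter in the table, 16 (94.1%) held CCAAT, against 43.2% of passed genes and 37.4% of all promoters. The 9 lower members with a promoter all held it, and so did 7 of the 8 that were under the threshold. Over all lower genes the share was 47.3%. The list holds known sterol genes, so its raised share of CCAAT is not a finding about OHT 3D.

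On the ATF4 list, whose genes make serine, proline and asparagine and import amino acids, 8 of 26 passed members were lower and none was higher, with a median of -0.42. The 8 include Ddit4 and Stc2, the 2 genes that this list shares with the HIF targets. Pycr1, the last enzyme of proline synthesis, had 58.5 CPM in WT, 23.1 CPM at OHT 3D and 32.7 CPM at OHT 4D. Phgdh, the first enzyme of serine synthesis, had 246, 112 and 173 CPM, and Asns, which makes asparagine, had 350.3, 184.9 and 313.0 CPM. The other serine enzymes, Psat1 and Psph, were lower as well, at -0.76 and -0.88. The stress factors on the same list were not: Atf4 lay at -0.11, Ddit3 at -0.16 and Trib3 at -0.04. Of 20 tRNA synthetases only Sars, which charges tRNA with serine, passed the threshold, at 391 CPM in WT and 234 CPM at OHT 3D. No member of the endoplasmic reticulum stress list, out of 22, was called in either direction.

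Several of the 12 largest falls lay outside these lists. Cds1, an enzyme of phosphatidylinositol synthesis, had 45.3 CPM in WT, 14.4 CPM at OHT 3D and 17.6 CPM at OHT 4D, and A2m, a protease inhibitor, 9.74, 2.35 and 3.59 CPM. Mobp and Crtac1, at -1.66 and -1.49, and Lefty1 were also among them. Lefty1, a secreted inhibitor of Nodal, had 195 CPM in WT, 60.5 CPM at OHT 3D and 112 CPM at OHT 4D. On the Nodal list, 4 of 19 members were lower, among them Lefty2 and Trh. Lefty2 had 193 CPM in WT and 86.9 CPM at OHT 3D but 252 CPM at OHT 4D, so its OHT 4D value was the highest of the 3 libraries. Between the control shRNA libraries Lefty2 differed by 0.87.

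The 12 largest rises were Tnc, Acta2, Cd44, Csf1, Lox, Bgn, Thbs1, Grem1, Anxa1, Col5a2, Col1a2 and Ptgs2. Most encode extracellular matrix, its receptors or contractile proteins. Tnc, an adhesion-modulating matrix glycoprotein, had 2.55 CPM in WT, 92.0 CPM at OHT 3D and 69.4 CPM at OHT 4D. Acta2, smooth muscle actin, had 5.90, 94.6 and 112 CPM, and Cd44, the hyaluronan receptor, had 1.03, 25.6 and 24.0 CPM. The log2-fold-changes at OHT 3D were 4.71 (interval 4.43 to 5.00), 3.79 (3.57 to 4.02) and 3.72 (3.37 to 4.03). These genes were low in WT and the 2 OHT libraries stood well above it. Their spread between libraries of 1 group was also large: Tnc differed by 1.86 and Acta2 by 1.76 between the control shRNA libraries, though Cd44 by only 0.22. Of the other large rises, Thbs1 differed by 1.49, Lox by 1.13, Col1a2 by 0.90, Csf1 by 0.76, Bgn by 0.74 and Grem1 by 0.65 between the same libraries.

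Among lists, the fibroblast markers had 23 of 28 passed members higher and none lower. Of these members 13 passed only through OHT 3D. Of the 15 that were above 1 CPM in WT, 10 were higher, and over all 36 members in the table, with no filter, the median was 1.04. Col1a1, a chain of type I collagen, had 4.202 CPM in WT, 46.5 CPM at OHT 3D and 64.6 CPM at OHT 4D. Fbln2, a matrix scaffold protein, had 7.06, 60.4 and 63.4 CPM, and Vim, the mesenchymal intermediate filament, 34.1, 109 and 134 CPM. S100a4, a calcium-binding protein, and Prrx1, a mesenchymal transcription factor, were at 0.27 and 0.22 CPM in WT and at 7.51 and 4.84 CPM at OHT 3D.

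The list does not behave as 1 block. Fn1, its most abundant member, was at 794 CPM in WT and 642 CPM at OHT 3D, and the counting intervals of Mmp2 and Fstl1 held 0. Some members were at or near 0: Lum and Fap had no reads in WT or at OHT 3D, Dpt had 0 and 0.09 CPM, and Dcn had 0.13 and 0.50 CPM. Others, among them Col3a1, Col6a1, Postn, Pdgfrb, Twist2 and Thy1, were higher at OHT 3D, by 0.64 (Thy1) to 2.48 (Postn). Summed over all 36 members in the table, the level was 946 CPM in WT, 1133 CPM at OHT 3D and 1114 CPM at OHT 4D. Without Fn1 it was 152 CPM, 491 CPM and 558 CPM. The 6 Y-linked genes in the table summed to 8 reads at OHT 3D and 5 at OHT 4D, with 0 in WT, and to 3046 and 2918 reads in the control shRNA libraries of the other line. Whether more fibroblasts in the OHT libraries take part in the matrix rises was not tested, and in bulk RNA more cells of a type and more RNA per cell cannot be told apart.

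Matricellular and secreted regulators had 17 of 26 passed members higher and none lower. Of the 18 above 1 CPM in WT, 9 were higher. Thbs1, an activator of latent TGF-beta, had 13.7 CPM in WT, 154 CPM at OHT 3D and 136 CPM at OHT 4D. Csf1, the macrophage growth factor, had 1.97, 36.5 and 40.6 CPM, and Timp2, an inhibitor of matrix proteases, had 5.32, 27.0 and 43.2 CPM. Between the control shRNA libraries, 7 of the 21 members that could be compared were more than 0.58 higher in the second, among them Thbs1 at 1.49 and Csf1 at 0.76, whereas Timp2 differed by 0.19. Sparc and Spp1, the most abundant members, lay under the threshold at 0.39 and -0.27.

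**Figure D3:**
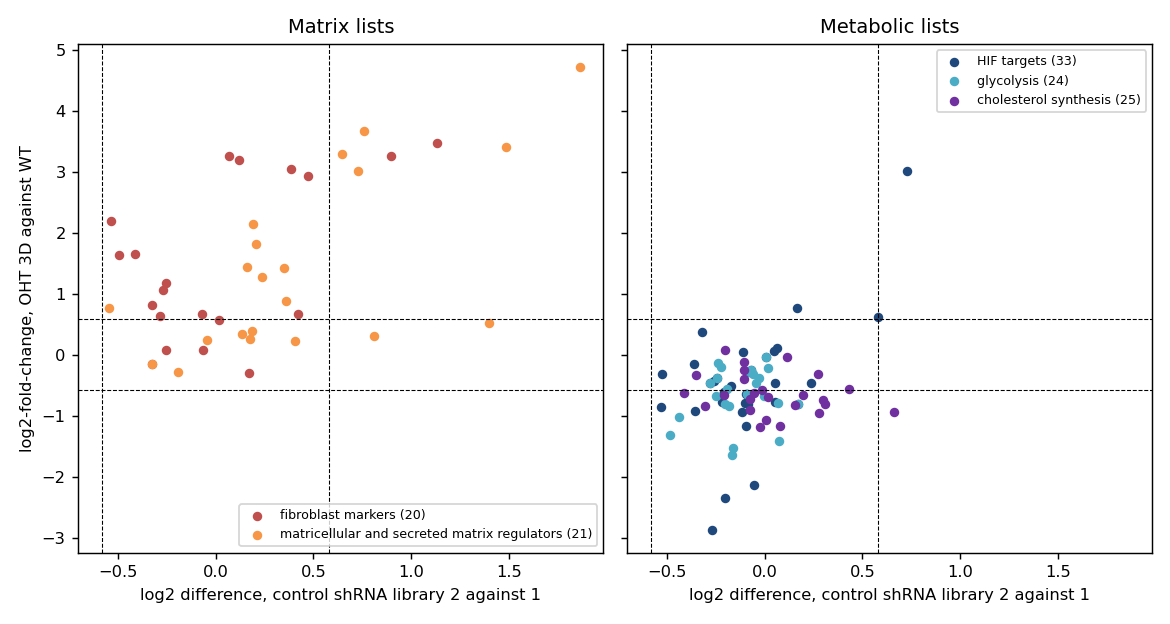
Log2-fold-change at OHT 3D against WT (vertical) beside the log2 difference between the 2 control shRNA libraries (horizontal) for members of matrix lists (left) and metabolic lists (right) measured in both; dashed lines mark 0.58 and -0.58. Matrix genes reach 1.86 on the horizontal axis (Tnc), and no metabolic gene lies below -0.58 on it.

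Signalling lists tied to these genes rose in part. On the TGF-beta list 10 of 19 passed members were higher and none was lower, with Inhba, an activin subunit, at 0.27 CPM in WT, 8.32 CPM at OHT 3D and 2.98 CPM at OHT 4D, and Tgfb3 at 0.31, 3.26 and 3.77 CPM. Of those above 1 CPM in WT, 4 of 13 were higher. On the YAP list, genes that answer to cell spreading and stiffness, 7 of 15 were higher: Ctgf had 13.9, 39.6 and 50.8 CPM, Cyr61 13.6, 38.2 and 51.7 CPM and Axl, a receptor kinase, 4.60, 24.0 and 20.6 CPM. Only 1 YAP target passed through OHT 3D alone, and no YAP target was called between the control shRNA libraries. On the BMP list 10 of 20 were higher and Bmp7 was lower, and of the 16 above 1 CPM in WT, 6 were higher. Bmp4 had 9.12, 29.6 and 25.2 CPM and Id1, an inhibitor of differentiation factors induced by BMP, 7.73, 23.5 and 22.2 CPM, while the BMP antagonist Grem1 rose from 0.72 CPM to 15.7 CPM at OHT 3D.

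The contractile list had 11 of 35 members higher and none lower. Of these members 4 passed only through OHT 3D, and of the 31 above 1 CPM in WT, 7 were higher, as many as with a filter at 5 CPM. Besides Acta2, Tagln, an actin-binding protein, had 12.4 CPM in WT, 78.2 CPM at OHT 3D and 124 CPM at OHT 4D, and Tpm1, tropomyosin, had 94.8, 174 and 262 CPM. Myl9, a myosin light chain, had 1.74, 10.2 and 16.5 CPM. All 3 were higher at OHT 4D than at OHT 3D, and Tagln differed by 1.02 between the control shRNA libraries. Actb and Actn4, which every cell uses for its cytoskeleton, stayed under the threshold. The Myl9 promoter is shown for its CArG box, the site of serum response factor, in capitals. It lies on the plus strand at chr2:156775214-156775513, and the box begins 161 bases before the start site.
Myl9: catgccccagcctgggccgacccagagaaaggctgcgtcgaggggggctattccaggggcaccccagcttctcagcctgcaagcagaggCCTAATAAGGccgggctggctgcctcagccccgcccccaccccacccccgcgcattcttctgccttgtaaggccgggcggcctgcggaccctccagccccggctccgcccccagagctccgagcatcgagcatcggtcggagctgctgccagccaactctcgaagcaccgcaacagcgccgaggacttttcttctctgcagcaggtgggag
The box was found in 9 of 30 promoters of the list (30.0%), against 1.53% of passed genes and 1.63% of all promoters, in 3 of 8 higher members and in 6 of 22 under the threshold. It was in 2.09% of all higher genes. The list holds known contractile genes, so its raised share of the box is not a finding about OHT 3D.

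On the primitive endoderm list 6 of 13 passed members were higher, and 5 of the 12 above 1 CPM in WT: Col4a1 had 33.3 CPM in WT, 95.6 CPM at OHT 3D and 129 CPM at OHT 4D, and Gata6, the factor that specifies this lineage, had 0.89, 2.44 and 7.27 CPM. Hnf4a was lower, and Sox17 and Foxa2, factors of the same lineage, did not pass 1 CPM. On the trophectoderm list 5 of 14 were higher, and 3 of the 12 above 1 CPM in WT, with Krt8 at 19.9, 65.2 and 155 CPM, Krt18 at 17.7, 44.2 and 110 CPM and Hand1 at 0.27, 3.08 and 5.34 CPM, while Eomes was lower, from 7.56 to 4.39 CPM. Hand1 differed by -0.59 between the control shRNA libraries. Krt8, Krt18 and Gata6 were higher again at OHT 4D, and so were the matrix and contractile genes Col1a1, Timp2 and Acta2. Tnc and Inhba were lower at OHT 4D than at OHT 3D. Igf2, an imprinted growth factor, had 5.45, 44.9 and 69.6 CPM. On the epithelial list Krt8 and Krt18 were the 2 higher members of 20, and 6 were lower. Crb3, a polarity protein, and Cldn7, a tight junction protein, lay at -0.996 and -0.85, while Cdh1, E-cadherin, lay at -0.09. Between the control shRNA libraries 6 of 19 members were above 0.58, and without the genes that differed there 2 of 14 were lower. Cldn7 differed by 0.82, and Esrp1, a splicing factor that was lower at OHT 3D, by 2.82. On the mesoderm list 6 of 20 genes passed, of which 4 were higher and Eomes was lower. Of these members 3 passed only through OHT 3D, and of the 3 above 1 CPM in WT, 1 was higher. The formative list had 4 higher and 4 lower of 13, and the neuroectoderm list 2 higher and 3 lower of 10. Foxd3, a factor of the formative list, went from 8.67 to 18.4 CPM, and Zic2, which is on both lists, lay at -0.79.

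Pluripotency genes were near their WT level. Of 25 members 1 (4.0%) was higher and 2 (8.0%) were lower, shares near the 6.18% of all genes on each side, with a median of 0.02. Pou5f1 had 302 CPM in WT, 296 CPM at OHT 3D and 347 CPM at OHT 4D, and Nanog had 367, 372 and 448 CPM. Esrrb and Klf4 lay at 0.11 and 0.18, and Sox2 at -0.30. The called members were Gbx2, from 10.4 to 30.4 CPM, and Dppa3 and Tcl1, from 55.7 to 27.2 CPM and from 31.2 to 17.1 CPM. Dppa3 differed by 1.38 between the control shRNA libraries. Otx2 and Fut9, genes that the study names, were at 20.5 and 27.5 CPM in WT and 10.4 and 13.4 CPM at OHT 3D. Rif1, another gene that it names, had 330.5 CPM in WT, 432 CPM at OHT 3D and 191 CPM at OHT 4D, with log2-fold-changes of 0.39 and -0.79, and Mycn lay at -0.08 at OHT 3D.

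Lists of growth machinery had almost no called member. DNA replication had 0 of 47, mitosis 0 of 40, ribosome biogenesis 0 of 38, the proteasome 0 of 31 and the polycomb complexes 0 of 24, with medians between -0.11 and 0.07. Over all genes 6.18% were called on each side, but above 100 CPM only 1.46% were higher and 2.17% lower. Values below 0 were found in 33 of 47 replication, 28 of 40 mitosis and 25 of 31 proteasome genes. In ribosome biogenesis 14 of 38 were below 0, and in the polycomb complexes 14 of 24. Mcm2, a subunit of the replicative helicase, had 475 CPM in WT and 468 CPM at OHT 3D, and Top2a, a topoisomerase, 876 and 751 CPM. Cytosolic ribosomal proteins also had 0 of 80 called, although 79 of them had values below 0 and the median was -0.19. Of 29 regulators of the G1 phase 3 (10.3%) were higher and 2 (6.90%) lower, against 6.18% of all genes on each side, with a median of 0.12. Among the called members, Ccnd2, a D-type cyclin, had 7.20, 37.9 and 23.8 CPM, Myc 19.8, 56.6 and 39.4 CPM, and Cdkn1b, a cyclin-dependent kinase inhibitor, 32.4, 18.1 and 28.2 CPM. On the p53 list 4 of 23 (17.4%) were higher, against 6.18% of all genes. Among them was Mdm2, from 176 to 304 CPM, while Cdkn1a lay at -0.12 and Bax at -0.05. Between the control shRNA libraries Mdm2 differed by 0.45, and the list's median was 0.32, against 0.33 at OHT 3D.

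On the DNA methylation list 4 of 17 passed members (23.5%) were higher and none was lower, against 6.18% of all genes on each side. The called genes were Tet1, Tet2 and Tet3, the dioxygenases that oxidise 5-methylcytosine, and Gadd45b. Tet2 had 78.4 CPM in WT, 147 CPM at OHT 3D and 69.5 CPM at OHT 4D, and Tet1 had 408, 623 and 204 CPM. Both were highest at OHT 3D. The writers Dnmt1, Dnmt3a and Dnmt3b lay between -0.07 and 0.005. Tet1 differed by 0.58 between the control shRNA libraries and, adjusted for length as described next, by 0.50 from WT at OHT 3D, under the threshold. The same adjustment took the list from 4 higher members to 2, with Tet3 the other one lost, from 0.605 to 0.494.

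The size of the difference depended on the length and level of a gene. With genes split by summed exon length into 5 bins of nearly equal number, the median log2-fold-change at OHT 3D ran from -0.11 in the bin of the shortest genes (93 to 2099 bases) to 0.06 in the longest (6315 bases and up). At OHT 4D it ran the other way, from 0.18 to -0.29, and between the control shRNA libraries from -0.07 to 0.07. Differences between OHT 3D and OHT 4D in long or short genes are to be read beside these values, among them the short ribosomal protein genes and the long Tet1 gene. With the median of 20 bins of length taken out, 779 genes were higher and 761 lower at OHT 3D. By mean level, 17.6% of genes at or under 2 CPM were higher and 6.02% lower, while above 100 CPM the shares were 1.46% and 2.17%.

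**Figure D4:**
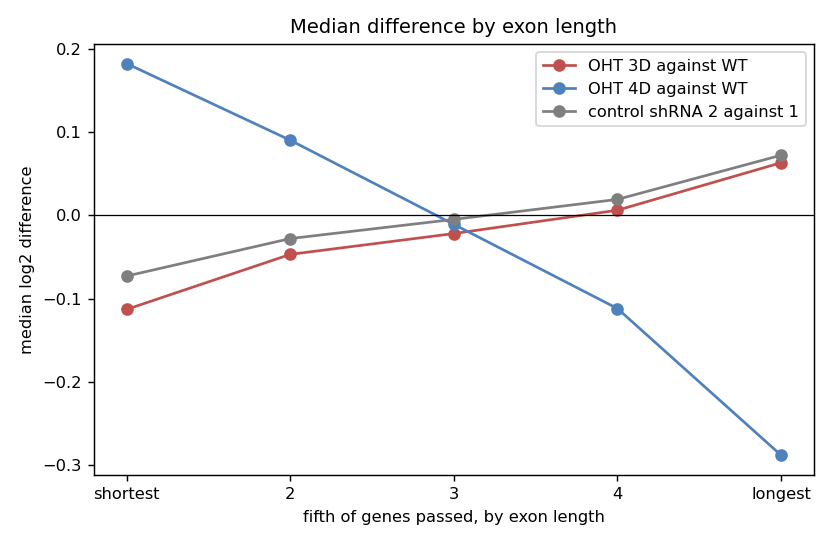
Median log2 difference of the genes passed, by 5 bins of exon length from shortest to longest, for OHT 3D against WT, OHT 4D against WT and the second against the first control shRNA library. The OHT 3D medians rise from -0.11 to 0.06 and the OHT 4D medians fall from 0.18 to -0.29; the OHT comparisons share the WT library.

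**Figure D5:**
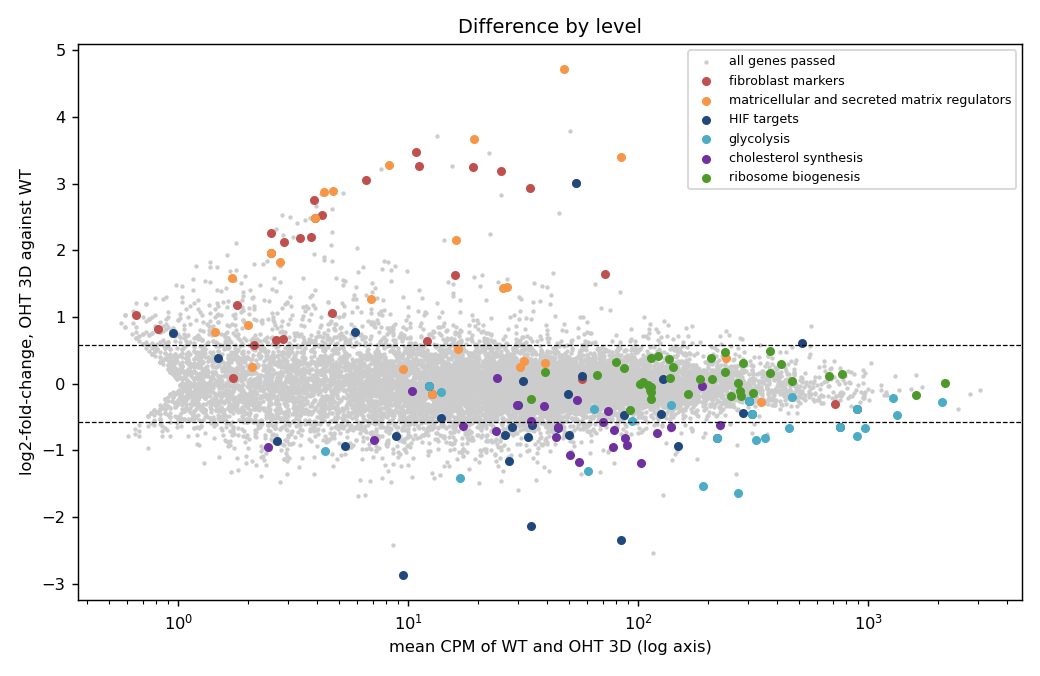
Log2-fold-change at OHT 3D against WT (vertical) by the mean CPM of both libraries (horizontal, log axis) for all 12693 genes passed (grey) and 6 lists (coloured); dashed lines mark 0.58 and -0.58. Higher fibroblast and matrix genes lie mostly at low level, while lower glycolysis genes such as Ldha (921 CPM in WT) reach high levels.

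By chromosome, the share of higher genes ran from 3.27% on chromosome 17 to 8.39% on chromosome 13, and the share of lower genes from 4.19% on chromosome 13 to 7.80% on chromosome 7. Of the genes passed, 12687 are annotated as protein coding. By symbol, 25 of 322 zinc finger genes named Zfp (7.76%) were higher and 4 (1.24%) lower, with a median of 0.11. Over all genes passed 6.18% were called on each side, so the share of higher Zfp genes was near that of all genes. At OHT 4D, which shares the WT library, 6 of the Zfp genes were higher and 42 lower. There 6.07% of all genes passed were higher and 9.38% lower. Collagens had 15 of 27 passed members higher and 1 lower, but 7 passed only through OHT 3D. Of the 20 collagens above 1 CPM in WT, 8 were higher, and the median was 1.055 over the members passed and 0.25 over all in the table. Of 207 solute carriers 9 (4.35%) were higher and 17 (8.21%) lower, shares near the 6.18% of all genes on each side.

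Pontin occupancy was read from ChIP-seq of ZHBTc4 cells, with 1 Pontin and 1 GFP control library, over promoters from 2500 bases before to 500 bases after the start site. The median log2 ratio of Pontin over GFP reads, scaled to 40729076 and 17185883 reads, was 0.39 for 772 higher genes, 0.39 for 780 lower genes and 0.44 for 10997 genes under the threshold. The quartiles of higher genes were -0.04 and 0.79. Among genes at 10 to 100 CPM in WT the medians were 0.45, 0.43 and 0.46 in the same order. Against 0.43 over all promoters, HIF targets stood at 0.41, cholesterol synthesis at 0.44, fibroblast markers at 0.40 and glycolysis at 0.28. The medians were 0.08 for the Nodal list (19 genes) and 0.14 for core pluripotency (25 genes). They were 0.61 and 0.60 for the primitive endoderm (13 genes) and trophectoderm (14 genes) lists. These lists did not stand apart: the germline and imprinted lists had 0.146 and 0.157, and the Hedgehog and FGF lists 0.765 and 0.621. The quartiles of the Nodal list were -0.01 and 0.79, against 0.05 and 0.81 over all promoters. With 1 library each these medians have no replicate error, and base composition was not taken into account.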

How the data were processed

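The authors trimmed reads, aligned them to NCBIM37 (TopHat for mRNA, Bowtie2 for ChIP), used HTSeq to count reads per gene and scaled the counts with the TMM factors of edgeR, as the study's methods state; the deposited tables hold CPM. Dividing each value by the CPM of 1 read gave whole reads for 100% of values within 0.01 read. With 1 library against 1 there are no residual degrees of freedom, so no count test could be run. The deposited ChIP-seq files list reads with a mapping quality score, which was not used further. Of 22713 IDs, 22337 matched a symbol. Differences were taken as log2(CPM + 1), genes above 1 CPM in WT or at OHT 3D were kept, and an absolute value above 0.58 was a call. Intervals are exact binomial intervals of the split of reads; reads carry no molecular identifiers. The script was tested on simulated data. Lists (47) and families (15) of genes were matched by symbol; members not matched were not analysed here. The genes, lists and comparison were chosen with earlier results of these data known. Named genes are Ruvbl1, the 12 largest rises and falls with a mean of at least 5 CPM, per list the 4 largest changes and 2 highest WT levels, and genes the study names; other members are named for their role or level after their values were seen. Promoters, from RefSeq, matched 10021 passed genes by symbol or synonym; promoters for ChIP came from GENCODE on NCBIM37 and needed at least 20 reads over both libraries. Alternatives were pseudocounts of 0.5 and 3, no filter, a 5 CPM filter, median-ratio scaling, a threshold of 1, and intervals beyond 0; an adjustment for length, a filter on genes that differ between the control libraries and a filter over 4 libraries were added after seeing the data. Python 3.11.15, numpy 2.4.6, pandas 2.3.3, scipy 1.17.1 and matplotlib 3.10.9 were used. Some genes that this rule selects are not reported here.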

Additional observations from a re-analysis of the deposited data

Results flagged for a closer look

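Tet1, the dioxygenase that oxidises 5-methylcytosine, passed the threshold in opposite directions on the 2 days: the log2-fold-change against WT was 0.61 at OHT 3D and -0.99 at OHT 4D. Each day is 1 library, both share the WT library, and the difference between the days was not tested. Tet1 was the only gene out of 258 selected for naming that did so. Adjusted for exon length the OHT 3D value was 0.50, under the threshold, and between the control shRNA libraries Tet1 differed by 0.58. Among the longest genes the median was 0.06 on the earlier day and -0.29 on the later one, and the part of gene length in the Tet1 values was not tested.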

How the results depend on the processing

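No paired analysis was possible because WT, OHT 3D and OHT 4D have 1 library each, with no replicate number in their labels. With 784 genes on each side as reported, a pseudocount of 3 gave 445 higher and 498 lower genes, a filter at 5 CPM gave 469 higher genes, and a threshold of 1 gave 255 higher and 125 lower genes. The other alternatives gave 726 to 926 higher and 608 to 937 lower genes. Ruvbl1 ranged from -2.56 to -2.47. Median-ratio scaling shifted the median of all genes by -0.005 on the log2 scale. Of 132 named genes that were called, 75 stayed called with a threshold of 1, 119 with a pseudocount of 3, 116 with the 5 CPM filter, 126 after the length adjustment and 110 without genes that differ between the control libraries. The median of the mesoderm list changed sign with the 5 CPM filter, to -0.67, where Eomes alone was left. Fibroblast markers had 18 higher members with a pseudocount of 3 and 21 without genes that differ between the control libraries, and matricellular genes had 15 and 12. Glycolysis had 12 or 13 lower members and cholesterol synthesis 15 to 17, except with a threshold of 1, which left 5 and 3. The same threshold left 4 of 16 lower and 1 of 4 higher HIF targets and 4 of 8 lower ATF4 genes. Depth limits genes of a few reads: 3 reads, the most that a count of 0 allows, are 0.134 CPM in WT and 0.136 CPM at OHT 3D. With the 5 CPM filter the higher members fell from 10 to 4 on the TGF-beta list and from 11 to 7 on the contractile list.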

Other observations

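On the Wnt list 6 of 30 members passed were higher and 2 lower, and 5 of the 6 were ligands: Wnt7b had 11.7 CPM in WT and 20.4 CPM at OHT 3D, while Wnt3, Wnt3a, Wnt5a and Wnt6 were at 0.18 to 1.34 CPM in WT and at 1.40 to 3.57 CPM at OHT 3D. Of the 26 members above 1 CPM in WT, 4 were higher, and the 6 became 2 with a pseudocount of 3 and 1 of 19 with a filter at 5 CPM. The lower members were the nuclear partners Lef1 and Tcf7, at -0.89 and -0.61, and Lef1 differed by 1.53 between the control shRNA libraries. Of 24 lysosome genes 4 (16.7%) were lower, against 6.18% of all genes, and Wipi1, an autophagy protein, went from 20.6 to 12.2 CPM. On the interferon list 3 of 16 (18.75%) were lower and 1 (6.25%) was higher, against 6.18% of all genes on each side. Among the lower ones was Bst2, an antiviral membrane protein, from 68.1 to 33.3 CPM. On the list of mesenchymal surface proteins 13 of 27 were higher and none lower, and of the 23 above 1 CPM in WT, 10 were higher. Cav1, the coat protein of caveolae, had 0.63 CPM in WT and 12.5 CPM at OHT 3D.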
